A study of Xenopus laevis with 12 samples.

Results

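Brains of *Xenopus laevis* tadpoles exposed to the amniotic mixture were compared directly with brains of tadpoles exposed to T4. The members are the 4 samples whose treatment label is the mixture at 1x and the 4 samples labelled T4, which is 8 of the 12 samples sequenced. The other 4 samples are the control, and they serve here only to place each difference: moved by T4, by the mixture, or by both in opposite directions. The mixture holds 15 compounds (phenols, phthalates, organochlorine pesticides, perfluorinated, polychlorinated and polybrominated compounds, a naphthol and heavy metals) at levels measured in human amniotic fluid. T4 was given at 10 nM. All groups, the control included, were kept from fertilization in water with 0.01% DMSO, with exposure for 8 days until stage NF 47. Every sample was RNA of 2 whole brains pooled, so that a change in the number of cells of a type cannot be told apart from a change in RNA per cell. The samples came from 2 breedings, and the labels do not say which sample came from which. The samples are named below by their title numbers, which run from 5 to 8 in the mixture group, from 9 to 12 in the T4 group and from 1 to 4 in the control group.

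Thyroxine (T4) is the main product of the thyroid gland. Deiodinases convert it to T3, which binds nuclear receptors that sit on DNA and switch their target genes on, or in some cases off. In amphibians these hormones drive metamorphosis, and in the vertebrate brain they act on the proliferation, differentiation and migration of neural cells. Some of the compounds of the mixture, perchlorate among them, can interfere with the making or the action of these hormones. A direct comparison of both exposures therefore asks where the mixture departs from the hormone itself, and the control shows which of the exposures departs.

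The count tables list genes by number and hold no names, and 0 of the 51041 numbers matched the RefSeq gene table. The genes are for this reason described by their pattern, and only 4 are given by number. Brain markers could not be checked, since they cannot be found by name. Between 10420292 and 11685566 reads were counted on genes in the mixture samples and between 10614787 and 11582420 in the T4 samples. Mean depth was 10915563 and 11142225 reads (exact two-sided permutation test, p = 0.514, adjusted over 3 tests on samples p = 0.514, n = 4 samples per group). A count of 3 in a sample, at most 0.291 CPM, was taken as the floor. No 2 samples of the same exposed group were copies (over 12 pairs the chi-square was 3.02 to 6.58 for each degree of freedom). Component 2 of the PCA of all 12 samples divided them into a first set (samples 5 and 6 of the mixture, 9 and 10 of T4, 1 and 2 of the control) and a second set (samples 7 and 8, 11 and 12, 3 and 4). The sets were found in the counts, and the number, size and sign of the differences are also given within each set. The paper likewise describes a batch effect on component 2, which its authors removed before testing, and experiments done at 2 time points. The main fit here has no term for the sets, and fits with such a term are given as alternatives. Nothing in the labels says that the samples are from separate cultures, so p-values measure the spread between these pools of brains.

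The mixture and the T4 brains stood apart along the main axis of variation. In a PCA of the 8 exposed samples alone, on variance stabilized counts, component 1 held 49.8% of the variance. The mixture samples scored −18.0, −20.6, −28.5 and −23.1 on it, against 18.7, 21.8, 24.1 and 25.7 in the T4 samples. Component 2 held 21.8% and separated the first set from the second within each exposure. The mean distance between samples of different exposures exceeded the mean distance within exposures by 28.0 on these components (one-sided exact permutation test, p = 0.0286, which is the smallest value for 4 against 4 samples, adjusted p = 0.0429 over 3 tests). With labels shuffled only within each set, a test chosen after seeing the data, 36 splits remain and the exact p was 0.0556, again the smallest possible, so that the 0.05 threshold cannot be passed there. The control samples had no part in building the axes, and were projected onto them. They scored −17.6, −11.2, −12.8 and −12.9 on component 1, so that all 4 lay on the side of the mixture. Set against the distance from the mean of the mixture samples to the mean of the T4 samples, the control samples lay from 10.9% to 25.1% of the way. The mixture samples ranged from −13.2% to 10.0% of that distance on this axis, where mixture sample 5 (10.0%) and control sample 1 (10.9%) nearly met. Samples that are only projected tend to be drawn towards the centre, so the gap between mixture and control is not read as a difference.

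**Figure D1:**
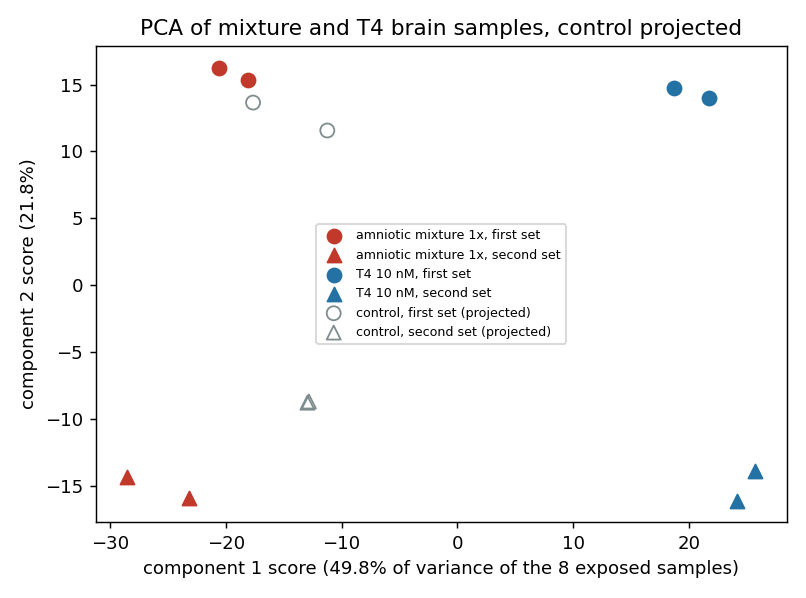
PCA of the 4 mixture samples and the 4 T4 samples, with the 4 control samples projected (open symbols). Component 1 (49.8% of the variance) is on the horizontal axis and component 2 (21.8%) on the vertical axis, both as scores. Circles are the first set and triangles the second. The mixture samples score from −28.5 to −18.0, the T4 samples from 18.7 to 25.7, and the control samples lie close to the mixture at −17.6 to −11.2.

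Between the exposures, 9500 of 27141 genes tested were differentially expressed (DEGs), which is 35.0% (95% Wilson confidence interval 34.4% to 35.6%, edgeR quasi-likelihood test, Benjamini-Hochberg adjusted p-value under 0.05). Of these, 5395 were lower in the mixture brains than in the T4 brains (19.9% of the genes tested) and 4105 were higher (15.1%). The lower genes made up 56.8% of the DEGs (95% Wilson confidence interval 55.8% to 57.8%). These intervals count genes as independent trials and do not cover the spread between samples. With 1 sample left out, 7818 to 9510 genes were DEGs. Most differences were small, with a median log2 difference of −0.49 among the lower and 0.41 among the higher genes. A difference of over 2-fold was reached by 1235 DEGs, or 4.55% of the genes tested. These were 15.8% of the lower genes, or 851, and 9.35% of the higher genes, or 384. A difference of over 4-fold was found for 120 lower and 51 higher genes. In 8124 of the DEGs the 4 mixture samples did not overlap with the 4 T4 samples, while 34.0% of all genes tested showed no overlap. By direction these were 4788 lower and 3336 higher DEGs, where 19.4% of all genes tested had every mixture sample below and 14.5% every mixture sample above every T4 sample.

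The same fit gave fewer DEGs against the control, 141 for the mixture (0.520%) and 6587 for T4 (24.3%). All 3 comparisons had a like median standard error, at 0.13 on the log2 scale. They differed in the size of the changes. Over all genes tested, the median absolute log2 difference was 0.26 between mixture and T4, 0.13 between mixture and control and 0.21 between T4 and control. The comparisons with the control share the control samples, and the difference between mixture and T4 is by arithmetic the difference of both changes. Their values are thus given side by side and not as separate evidence.

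The direction of the differences varied with the level of the gene. The genes tested were divided by mean level into 5 bins of 5428 or 5429 genes. In the bin of the lowest levels, with a mean log2 CPM of at most 2.11, 13.3% of the genes were DEGs, 444 of them higher and 280 lower in the mixture brains. In the middle bin, 42.8% were DEGs, 747 higher and 1577 lower. In the bin of the highest levels, from a mean log2 CPM of 5.84, 44.6% were DEGs, and the higher genes outnumbered the lower ones again, with 1420 against 1003. The median absolute log2 difference of the DEGs was 1.16 in the lowest, 0.50 in the middle and 0.30 in the highest bin. Genes of low level had larger errors (median standard error 0.35 in the lowest bin and 0.07 in the highest), so that only large differences could be called there.

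Together, the DEGs that were higher in the mixture brains held 25.5%, 25.9%, 26.9% and 26.3% of the CPM in the mixture samples, against 21.0%, 20.6%, 20.2% and 19.9% in the T4 samples. The control samples were at 25.6%, 24.6%, 24.5% and 24.6%. The DEGs that were lower in the mixture brains held between 17.1% and 18.6% in the mixture samples, between 24.2% and 25.2% in the T4 samples, and between 18.5% and 19.5% in the control samples. For both groups of genes the control samples were near the mixture samples and away from the T4 samples. The genes were chosen on these samples, and the shares only describe them. The number of genes with at least 1 read was between 33514 and 33827 in the mixture samples and between 33074 and 33420 in the T4 samples, with means of 33649 ± 130 and 33259 ± 163 (SD, n = 4 samples; exact two-sided permutation test, p = 0.0286, the smallest possible, adjusted p = 0.0429 over 3 tests). Shuffled within sets, the exact p was 0.0556. The control samples had from 33550 to 33855. Fewer genes were thus detected in the T4 brains, although their samples were not shallower.

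The calls against the control placed each of the 9500 DEGs in 1 of 5 classes. T4 alone had moved 5389 of them, or 56.7% (95% Wilson confidence interval 55.7% to 57.7%, with genes counted as independent trials). That share was 46.6% in the second set alone and 63.4% without mixture sample 7. The mixture alone had moved 91. Both had moved 27 in opposite directions, and 8 in 1 direction by different amounts. Genes moved alike by both exposures tend not to be DEGs between them, so these classes favour opposite over like movement. For the remaining 3985 DEGs, 41.9%, neither exposure differed from the control at the threshold. Since the mixture gave 141 DEGs against the control and T4 gave 6587, the class of T4 alone could hold many more genes than those in which the mixture takes part.

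The class moved by T4 alone held 3414 genes lower in the mixture brains (raised by T4) and 1975 higher in the mixture brains (lowered by T4). Among the raised genes, the median log2 change was −0.03 after the mixture and 0.50 after T4, and among the lowered genes it was 0.05 after the mixture and −0.40 after T4. A difference of over 2-fold between the exposures was found in 746 of the raised and 201 of the lowered genes. In 98.7% of the class the mean of the control was nearer to the mixture than to T4, which the calls that define the class largely fix. An unadjusted p-value under 0.05 for the mixture against the control was found in 773 of the 5389 genes of the class, against 15.5% of all genes tested. In 570 of the 773 the mixture change was opposite to that of T4. An opposite change widens the difference between the exposures, so the choice of DEGs favours it.

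**Figure D2:**
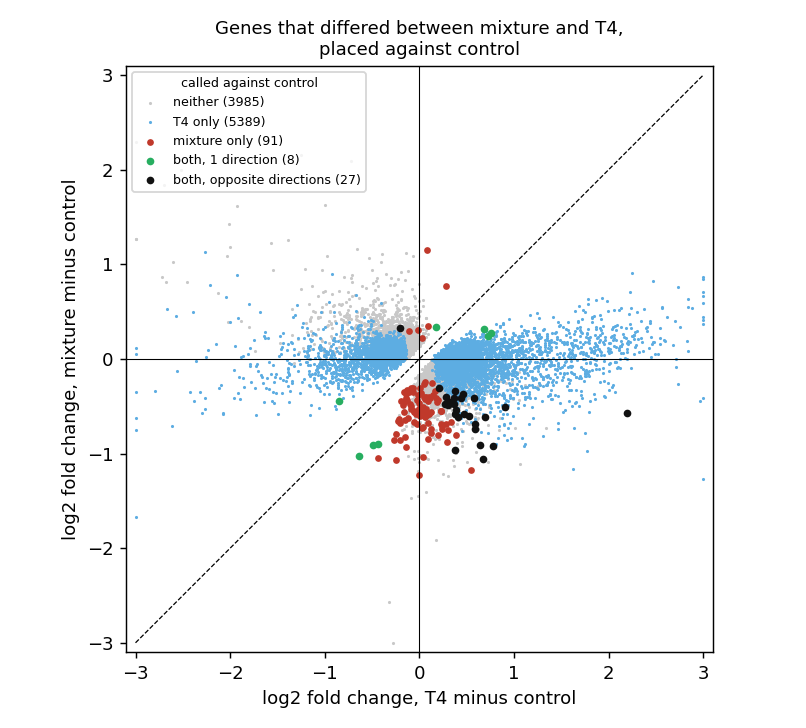
The 9500 genes that differed between mixture and T4, each by its log2 fold change of T4 against control (horizontal) and of mixture against control (vertical), coloured by the calls against control. Points beyond 3 on either axis are drawn at 3, the dashed line marks equal changes, and both axes use the same control samples. The 5389 genes moved by T4 alone spread along the horizontal axis, and the 27 moved in opposite directions lie below and right of the centre except 1.

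Genes given by number show these patterns at their largest. The class of T4 alone was led, among genes lower in the mixture brains, by gene47623. It had 0, 0, 3 and 0 counts in the mixture samples, against 104, 56, 203 and 147 counts in the T4 samples. The control samples had 3, 0, 2 and 3 counts, so the gene was at or under the floor in all 8 samples without T4. In CPM, gene47623 averaged 0.0711 ± 0.142 in the mixture samples and 11.4 ± 5.19 in the T4 samples (SD, n = 4 samples). With 3 counts in the mixture samples together and 510 in the T4 samples, its level after T4 was 168 times that after the mixture, with a 95% Clopper-Pearson interval of 57.0 to 815 that covers counting error only. The adjusted p-value of gene47623 was 7.18e-06 (edgeR quasi-likelihood test, adjusted by Benjamini-Hochberg over all genes tested).

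The largest difference in the other direction, among genes moved by T4 alone, was that of gene27474. It had 15, 23, 37 and 42 counts in the mixture samples, against 0, 3, 2 and 0 counts in the T4 samples. The control samples had 16, 27, 41 and 28 counts and overlapped with the mixture samples. The mean level of gene27474 was 2.67 ± 1.05 CPM in the mixture samples, 0.116 ± 0.142 CPM in the T4 samples and 2.58 ± 1.00 CPM in the control samples (SD, n = 4 samples). Over the summed counts it was 23.7 times higher after the mixture than after T4 (95% Clopper-Pearson interval 9.89 to 74.5, counting error only), with an adjusted p of 0.000179 in edgeR. Only 1 other gene behaved like gene47623 in being at the floor in every mixture sample and above 10 counts in every T4 sample, and it too was at the floor in every control sample. The reverse, at the floor in every T4 sample and above 10 counts in every mixture sample, was found for gene27474 alone.

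Opposite movement past the threshold was rare in this fit, in which the mixture had 141 calls against the control. How rare it was varied with the setting, as given below. Of the 27 genes that both exposures had moved in opposite directions, 26 were lowered by the mixture and raised by T4. That split resembles the one of all mixture calls against the control, of which 130 (92.2%) were lower and 11 higher. Their log2 change after the mixture lay between −1.06 and −0.31 (median −0.53), and after T4 it lay between 0.21 and 2.2 (median 0.42). The direct log2 difference ranged from −2.77 to −0.52 with a median of −0.97. By level the 26 genes ranged from 3.47 to 57.0 CPM in the mixture brains, from 11.2 to 153 CPM in the T4 brains and from 6.57 to 75.1 CPM in the control brains. In 26 of the 27 genes the 3 groups did not overlap at all, with every control sample between the mixture and the T4 samples. Over all genes tested this order without overlap was found in 443 (1.63%), all of them DEGs. As the 27 genes were chosen by calls on the same samples, their count is a description.

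The largest of these differences was that of gene537. It had 24.2, 25.9, 17.7 and 21.7 CPM in the mixture samples, against 150, 153, 153 and 154 CPM in the T4 samples. The control samples had 29.4, 28.5, 38.7 and 36.8 CPM, above every mixture sample and far below every T4 sample. The T4 samples of gene537 thus lay within a few percent of each other, and the group mean after the mixture was 22.4 ± 3.56 CPM against 153 ± 1.85 CPM after T4 (SD, n = 4 samples). The log2 difference was −2.77 with a standard error of 0.11, at an adjusted p of 1.01e-08 in edgeR. Against the control, the log2 change of gene537 was −0.57 after the mixture (adjusted p = 0.0493) and 2.2 after T4. The call of the mixture against the control lay just inside the threshold and was lost in all 12 fits that left out 1 sample, whereas the calls of T4 against control and of mixture against T4 held in all 12.

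The only gene raised by the mixture and lowered by T4 was gene6365. It had 949, 1006, 998 and 1118 counts in the mixture samples, against 740, 709, 730 and 692 counts in the T4 samples. The control samples lay between them with 874, 888, 744 and 778 counts. Scaled to depth, gene6365 averaged 93.8 ± 1.60 CPM in the mixture samples and 65.3 ± 3.40 CPM in the T4 samples (SD, n = 4 samples), and the 3 groups did not overlap. The difference was small but larger than the spread within groups, with a log2 difference of 0.52 with a standard error of 0.06, at an adjusted p of 1.36e-05 in edgeR. The log2 change of gene6365 against the control was 0.32 after the mixture (adjusted p = 0.0285) and −0.20 after T4 (adjusted p = 0.0178). Of the 12 fits that left out 1 sample, the mixture call against the control held in 6 and the T4 call in 10.

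**Figure D3:**
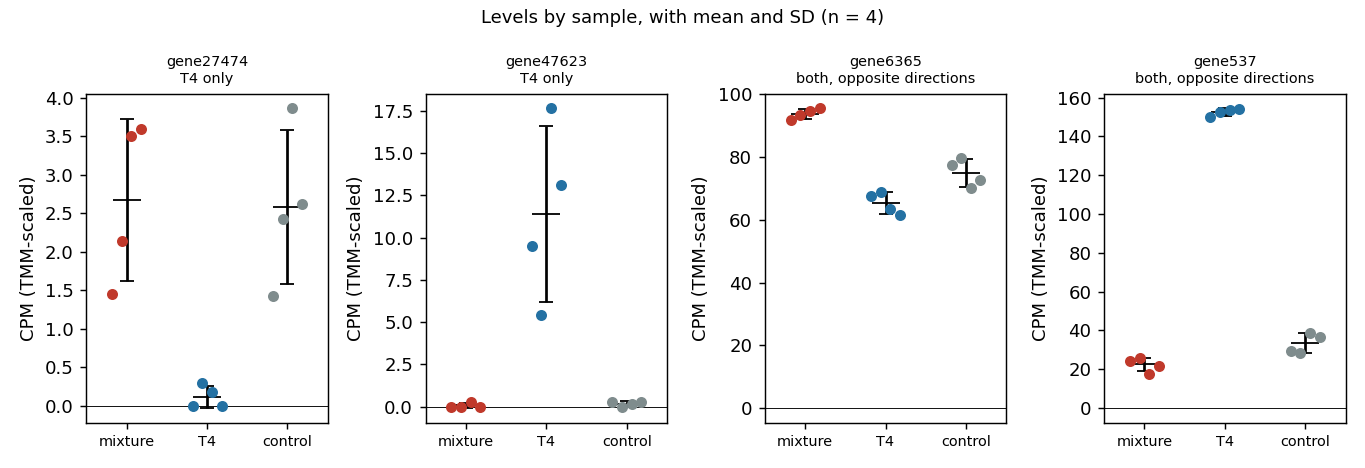
Levels of 4 genes in CPM (linear axes from about 0) in each sample of the mixture, T4 and control groups, with the mean and SD (n = 4 samples per group). For gene27474 and gene47623 the mixture samples lie with the control samples, and T4 stands apart. For gene6365 and gene537 the control samples lie between the mixture and the T4 samples.

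The 91 genes moved by the mixture alone were lower in the mixture brains than in the T4 brains in 85 cases and higher in 6, a share of lower genes near that of all mixture calls against the control (92.2%). Among the 85, the log2 change after the mixture lay between −1.22 and −0.25 (median −0.55), and after T4 it lay between −0.44 and 0.54 (median 0.01). An unadjusted p-value under 0.05 for T4 against the control was found in 19 of the 85. It was found in 36.4% of all genes tested, but that share includes the genes called for T4. The class leaves those genes out by its rule, so the 19 cannot be set against that share. In 13 of these 19 the T4 change was opposite to that of the mixture, which the choice of DEGs again favours. Median levels were 17.5 CPM in the mixture brains, 25.4 CPM in the T4 brains and 25.7 CPM in the control brains. In all 85 every mixture sample was below every control sample, as their selection favours, against 5.81% of all genes tested. A difference of over 2-fold from T4 was found in 7 of the 85 and in 1 of the 6. The 8 genes moved by both exposures in 1 direction differed from T4 by less than 1.5-fold each.

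In fits without a term for the set, how many genes the mixture had helped to move depended on single samples. Leaving out mixture samples 5 to 8 one at a time gave 15, 11, 0 and 0 genes moved in opposite directions. Leaving out T4 samples 9 to 12 gave 12, 7, 12 and 8, and leaving out control samples 1 to 4 gave 5, 0, 0 and 1. For genes moved by the mixture alone, the same fits gave 62, 39, 1 and 2 (mixture sample left out), 41, 37, 50 and 43 (T4 sample left out) and 33, 4, 2 and 5 (control sample left out). Both classes thus nearly vanished without 1 of several mixture or control samples, while every T4 sample left out kept some of each. Leaving out a sample also makes the sets uneven between the groups, and it was not tried in a fit with a term for the set. When component 2 was a covariate these classes held 105 and 325 genes instead of 27 and 91, and all 27 opposite genes stayed in their class. Between mixture and T4, all 27 and 84 of the 91 (92.3%) were DEGs in every fit that left out 1 sample. Of all DEGs 69.7% were, of the class of T4 alone 85.5% and of the class of neither 47.7%. Opposite changes add up in the direct difference, and a call against the control also favours a firm one, so these shares only describe the classes. The class of T4 alone held between 4253 and 5096 genes over the 12 fits.

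The 3985 DEGs that neither exposure had moved past the threshold were lower in the mixture brains in 1864 cases and higher in 2121. In the lower genes the median log2 change was −0.22 after the mixture and 0.17 after T4, and in the higher genes it was 0.17 after the mixture and −0.19 after T4. The mean of the control lay between those of the exposures in 95.3% of them, against 36.7% of the genes that were not DEGs and 60.8% of the genes moved by T4 alone. A gene with the control in between can pass the threshold between the exposures and miss it against the control, so the choice of the class favours such genes. With an unadjusted p-value under 0.05 for the calls against the control, 1208 DEGs were left in the class of neither, and the class of opposite directions held 892 genes, of which 584 were lower and 308 higher in the mixture brains. By that rule 15.5% of all genes tested were called for the mixture and 36.4% for T4.

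The classes changed with the size of the difference, and not in the same way for both directions. Among genes lower in the mixture brains, T4 alone had moved 46.4% of the 1288 genes with the smallest differences, 68.7% of those from 1.5- to 2-fold, 86.5% of those from 2- to 4-fold and 95.4% of the 109 genes from 4- to 8-fold. Among genes higher in the mixture brains the share was 33.2%, 55.2%, 52.9% and 59.3% in the same ranges, and 37.5% of the 24 genes over 8-fold. Large differences with a higher level after T4 were thus mostly increases against the control, whereas of the large differences with a higher level after the mixture about as many were in the class of neither as in the class of T4 alone. By its mean, the control was still nearer to the mixture than to T4 in most large differences of both directions. The share was 88.3% (2- to 4-fold), 92.6% (4- to 8-fold) and 83.3% (over 8-fold) for higher genes, and 90.2%, 97.2% and 90.9% for lower genes. Median log2 CPM from 4- to 8-fold was 0.89 for higher and 3.04 for lower genes, and whether level shaped the classes was not tested.

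**Figure D4:**
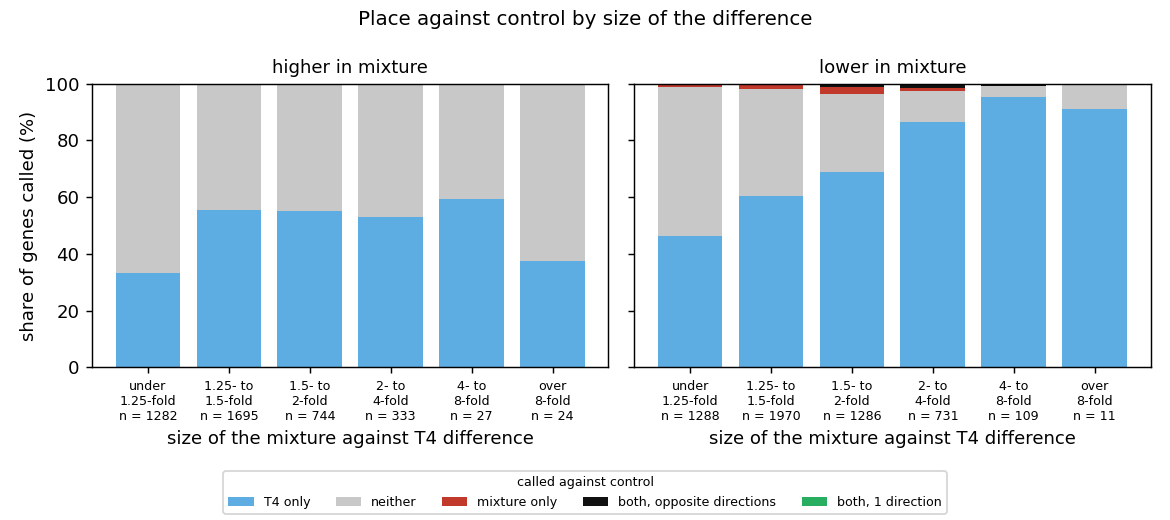
Share of genes (in %) in each class of calls against control, by the size of the mixture against T4 difference, for genes higher (left) and lower (right) in the mixture brains, with the number of genes under each bar. The share moved by T4 alone reaches 95.4% among lower genes from 4- to 8-fold, and is 37.5% among the 24 higher genes over 8-fold.

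The 24 genes over 8-fold higher in the mixture brains varied between the sets. Their summed level was 104 and 141 CPM in mixture samples 5 and 6, and 63.3 and 49.5 CPM in mixture samples 7 and 8. The T4 samples had 6.39, 4.56, 6.52 and 9.43 CPM, below every mixture and every control sample. The control samples showed the same order as the mixture samples, with 66.6 and 50.1 CPM in samples 1 and 2 of the first set and 34.3 and 24.0 CPM in samples 3 and 4 of the second. In 18 of the 24 genes both mixture samples of the first set were above both of the second, against 25.6% of all genes tested. In 12 (50.0%) the control samples were so ordered, against 24.4% of all genes tested. The difference from T4 was called for 20 of the 24 genes within the first set and for 7 within the second, where 15.3% of all genes tested were called in the first set and 31.1% in the second. Each set had its own filter on low counts, and only 11 of the 24 genes were tested in both sets. A gene that was not tested in a set could not be called there, so the 20 and the 7 cannot be compared. Genes over 8-fold higher numbered 41 and 42 without mixture samples 7 and 8, 18 without mixture sample 5 or 6, and 6 when only the 8 exposed samples were fitted. They numbered 43 with DESeq2, 76 with no filter on low counts, 1 with at least 10 counts in every sample, 61 in the first set and 16 in the second. These genes were of low level, with a median log2 CPM of 0.86. In the test of the difference between sets, an adjusted p-value under 0.05 was reached by 0 of the 24 genes (lowest 0.188, edgeR), and an unadjusted one by 13, against 7.14% of all genes tested.

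The 11 genes over 8-fold lower in the mixture brains were high in the T4 samples of both sets. Their summed level was 49.5, 44.0, 28.8 and 21.4 CPM in mixture samples 5 to 8, against 370, 346, 402 and 375 CPM in T4 samples 9 to 12. The control samples had 36.7, 29.8, 26.2 and 24.1 CPM. T4 alone had moved 10 of these 11 genes. Within the first set 9 of them were called, and within the second set all 11, against 15.3% and 31.1% of all genes tested. After the filter of each set, 10 of the 11 were tested in both. The same test of the difference between sets gave 0 of the 11 genes at an adjusted p-value under 0.05 (edgeR) and 6 at an unadjusted one, against 7.14% of all genes tested. Genes over 8-fold lower numbered 17 without mixture sample 6, 6 in the first set, 29 in the second, 28 with no filter on low counts and 3 with at least 10 counts in every sample.

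**Figure D5:**
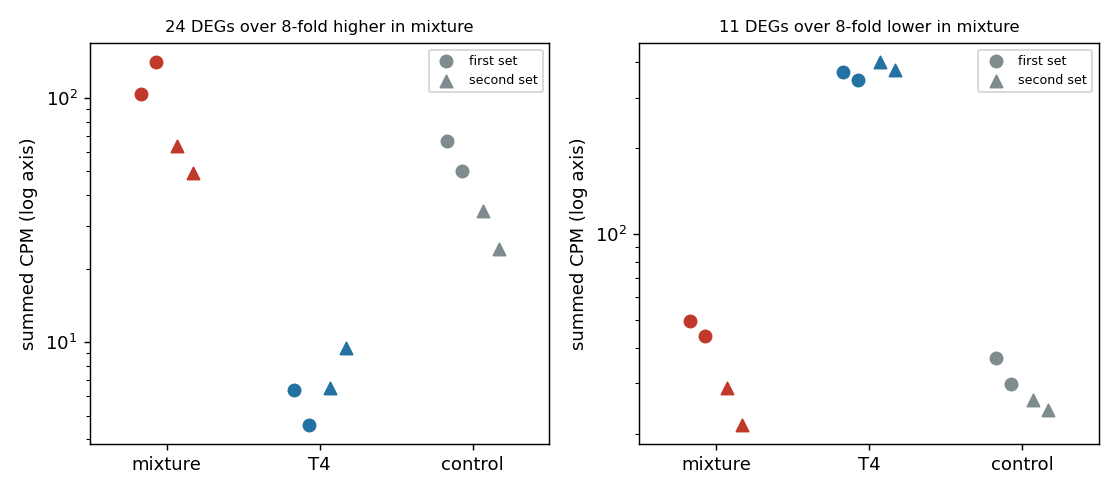
Summed CPM (log axes) of the 24 genes over 8-fold higher (left) and the 11 genes over 8-fold lower (right) in the mixture brains, 1 point per sample, for the mixture, T4 and control groups. Circles are the first set and triangles the second. In the left plot the mixture samples lie at 104 and 141 CPM in the first set and at 63.3 and 49.5 CPM in the second, and the control samples are ordered alike. In the right plot the T4 samples stay between 346 and 402 CPM in both sets.

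The difference between mixture and T4 was then followed from set to set, since the sets hold different samples. In the first set alone (2 samples per group) 4191 genes were DEGs, 1406 higher and 2785 lower in the mixture brains. Of the 4119 that were also tested in the second set, 98.7% had the same sign there. Of these 4119, 3418 were DEGs there with the same sign, against 31.1% of all genes tested. Among the 4119, the median log2 difference of the lower genes was −0.59 in the first and −0.69 in the second set. For the higher genes it was 0.47 and 0.49. In the second set alone 8475 genes were DEGs, 3687 higher and 4788 lower. Of the 8421 of them tested in the first set, 97.1% had the same sign there. The same 3418 were DEGs there with the same sign, against 15.3% of all genes tested. The differences of these 8421 genes were smaller in the first set. Their median was −0.43 in the first and −0.63 in the second set for the lower genes, and 0.29 and 0.49 for the higher genes. Genes chosen by a call in 1 set tend to have larger differences in that set, so the choice favours this order. Over all genes tested in both sets, 80.7% had the same sign. The DEGs of the fit of all samples had a median absolute log2 difference of 0.39 in the first and 0.51 in the second set, and 75.6% of them were larger in the second, while the median standard error was 0.15 in both sets. A test of the difference between the sets gave 0 genes (edgeR test of the interaction at an adjusted p-value under 0.05), and 1937 genes (7.14%) had an unadjusted p-value under 0.05. In this test with 6 residual degrees of freedom no gene was thus shown to respond differently in the sets, and none was shown to respond alike.

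By class, all 27 genes moved in opposite directions kept the sign of both changes against the control in both sets. In the class of T4 alone, 3279 of 5389 genes kept the sign of the change after the mixture in both sets, and 5374 kept the sign of the change after T4. All 91 genes moved by the mixture alone kept the sign of the mixture change, and 64 that of the T4 change. The samples of each set are among those that chose the classes, so these counts describe how evenly the sets took part.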

How the data were processed

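The values analysed are counts, the whole numbers of reads the authors assigned to each gene without normalization. Per the labels and the methods, the authors kept 1 copy of duplicated reads, trimmed them, mapped them with Bowtie2 (version 2.2.4) to release 9.2 of the genome, kept uniquely mapped reads and counted them with HTSeq (version 0.9.1). Reads that match similar gene copies (L and S) equally well are lost by this, and the strand setting is not given in the sources used here. The deposited names of the control tables list the 5′ trimming once more than those of the exposed samples. Whether the control reads were trimmed once more is not known. If they were, it would bear on the calls against the control, on the classes and on the place of the control samples in the PCA. The control samples share the fit with the exposed samples, so it could also touch the filter, the spread and the direct calls. The 5 rows that name no gene (38.3% to 42.2% of reads) were left out.

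Genes were tested with edgeR (version 4.0.16, R version 4.3.3): TMM, filterByExpr with a minimum count of 10, all 12 samples in 1 fit of 3 groups, no covariate, 9 residual degrees of freedom, and Benjamini-Hochberg adjusted p-values under 0.05. Standard errors are the log2 difference divided by the root of the F statistic. CPM are TMM-scaled, and log2 CPM means used a prior count of 2. For the PCA, counts were transformed with the varianceStabilizingTransformation function of DESeq2 (version 1.42.0), a package also used for an alternative test. Other alternatives were RLE size factors, other filters, the 8 exposed samples alone, a threshold of 0.1, component 2 or the set as a term, removal of component 2, each set alone, and each sample left out. In 5 simulations of mixture against T4 on 26851 to 26873 genes, edgeR recovered 21.8% of genes changed 1.3-fold, 79.2% of those changed 2-fold and 95.3% of those changed 4-fold, and 4.07% of the genes it called were unchanged. Each simulation changed 200 genes, none of the lowest levels, and held no difference between sets. With 9500 DEGs and 2 sets in the data, these rates need not carry over.

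The genes given by number followed a rule: mean log2 CPM above 0, no overlap between mixture and T4 samples, and the largest difference in each direction among genes moved by T4 alone and among genes moved in opposite directions. Gene lists and cell type markers need gene names and were not analysed here. The groups and rules were chosen with earlier results of these data known. Figures were drawn with matplotlib (version 3.10.9).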

Additional observations from a re-analysis of the deposited data

Results flagged for a closer look

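Of 30 groups of 4 samples examined for a sample far from the others, 2 had one, where chance gives about 1 in 20. For gene47623, mixture sample 7 had 0.284 CPM (3 counts), while the other mixture samples were at 0. With 3 samples at 0 any count in the fourth stands apart in this way. The summed share of CPM held by genes higher in the mixture than in the T4 brains was 25.6% in control sample 1, against 24.5% to 24.6% in the other control samples.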

How the results depend on the processing

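The 9500 DEGs between mixture and T4 numbered from 7818 to 9510 when 1 sample was left out, with 4519 to 5383 lower, 3146 to 4233 higher and 1138 to 1325 over 2-fold. With the first set alone there were 4191, 2785 lower and 1406 higher. All other alternatives stayed within 1.5 times of these counts. With component 2 as a covariate all 9500 remained DEGs with the same sign, and 6624 did in all 12 fits that left out 1 sample. The lower share was between 53.4% and 66.5% over all settings. The classes in which the mixture takes part depended on the setting. In the order mixture alone, opposite directions and 1 direction they held 327, 107 and 26 genes with DESeq2, 44, 13 and 2 with no filter on low counts, 244, 95 and 25 at an adjusted p-value under 0.1, 325, 105 and 31 with component 2 as a covariate, 332, 106 and 30 with the set as a factor, 772, 325 and 86 with component 2 removed before DESeq2, 0, 0 and 1 in the first set, and 1329, 892 and 217 with an unadjusted p-value under 0.05 against control. In the second set the first of these classes held 45 and the next 13 genes. With 1 sample left out they held 1 to 62, 0 to 15 and 1 to 6 genes. The class of T4 alone held 2613 genes in the first set and 4253 to 5096 with 1 sample left out. The class of neither held 1577 genes in the first set, 1208 with the unadjusted p-value against control and 2859 to 4959 with 1 sample left out. The cause of these shifts was not tested. The separation of the exposures on the PCA ranged from 13.3 to 49.5 over 4 other ways to build it, and from 26.9 to 29.3 with 1 sample left out, each with the smallest p-value possible. The 4 ways differ in the number of genes or in the scale of the values, so the sizes of the separation cannot be compared between them. With labels shuffled within each set, chosen after seeing the data, the separation was the same 28.0 and the exact p 0.0556. The 4 genes given by number kept their direction and their call between mixture and T4 in every setting that tested them, and gene27474 and gene47623 were not tested with at least 10 counts in every sample. With only the 8 exposed samples no class against control can be given. Samples could not be paired 1 to 1 because the title numbers run from 1 to 12 and no number is shared between groups. Grouping them by set was possible, and the fit with the set as a factor gave 11343 DEGs between mixture and T4. Genes of low level are limited by depth, since differences under the floor of 3 counts cannot be seen.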
